A study of Homo sapiens with 5 samples.

Results

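HMOX1 encodes heme oxygenase 1, the inducible enzyme that splits heme into biliverdin, carbon monoxide and iron. Peaks of the transcription factor NRF2 were taken as belonging to HMOX1 when their summit lay on chromosome 22 of the hg19 build in a window of 40 kb, which reaches from 17060 bp before to 22940 bp beyond the gene start. The gene lies on the plus strand. The rule was positional and used no measured value, but the gene and window were chosen with earlier results of these data known. It found 2 peaks among the 1925 of cells treated with sulforaphane (SFN) and 0 among the 2199 of vehicle-treated cells, that is 2 of 4124 peaks in all. Ordered by gene start in RefSeq's GRCh38.p14 table, the protein-coding genes next to HMOX1 are TOM1 before it and MCM5 after it. The microRNA genes MIR3909 and MIR6069 start after the start of TOM1 and before that of HMOX1. Gene ends were not compared, so these microRNA genes may lie inside TOM1.

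The study recovered NRF2-bound DNA by chromatin immunoprecipitation and sequenced it (ChIP-seq) in BEAS-2B, an established cell line made from human bronchial epithelium by immortalisation with a viral hybrid. Cells were exposed for 5 h to 10 µM D,L-sulforaphane (2 samples) or to 0.1% DMSO as vehicle (2 samples), and both treatments were precipitated with the same rabbit monoclonal NRF2 antibody. A further vehicle sample was precipitated with rabbit IgG. Each treatment is represented by 1 peak list, so values per sample and their spread cannot be given, and every value below describes a list and carries no test. All groups are of the same cell line.

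NRF2 is held at a low level by KEAP1, which marks it for degradation, and electrophiles such as the isothiocyanate sulforaphane release it from that control. Stabilised NRF2 pairs with small MAF proteins at antioxidant response elements, and at HMOX1 it shares these elements with the heme-sensitive repressor BACH1. In mouse and human, the inducible expression of HMOX1 is known to depend largely on enhancers that lie several kilobases upstream of the promoter and hold repeated copies of this element.

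The 2 SFN peaks both lay upstream of HMOX1, and no peak was called in either list from 3766 bp before the gene start to the end of the window, which takes in the promoter. The distal peak, chr22:35767885-35768272, had its summit at position 35768061, 8999 bp upstream of the start. The proximal peak, chr22:35772878-35773294, had its summit at position 35773088, 3972 bp upstream. The summits were 5027 bp apart, with 4605 bp between the edges of the peaks. Each peak was thus a separate call with a summit of its own.

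**Figure D1:**
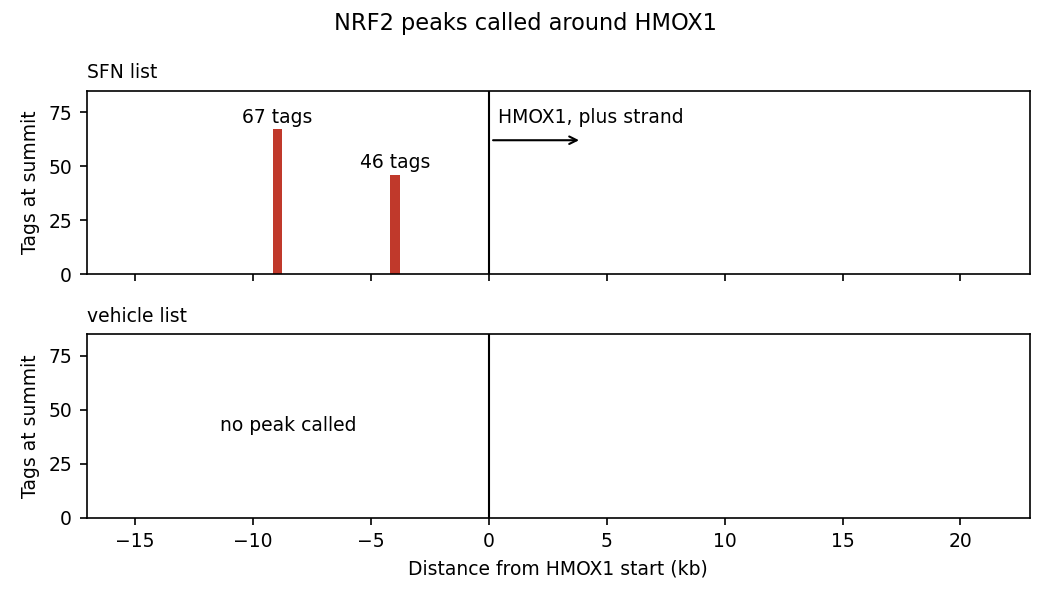
Tags at the summit (vertical axis) of each NRF2 peak against distance from the HMOX1 start in kb (horizontal axis), for the SFN list above and the vehicle list below; bars are drawn to the width of the peak and the vertical line marks the gene start. Both SFN peaks, with 67 and 46 tags, lie before the gene start, and the vehicle panel holds no peak.

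The distal peak was the taller of the pair. The pileup, which is the number of extended tags that cover the summit as the authors' caller counted them, was 67 tags at the distal summit (exact Poisson 95% interval 51.9 to 85.1) and 46 at the proximal summit (33.7 to 61.4). These intervals cover counting error alone. The distal summit thus had 21 more tags, or 1.46 times as many, and held 59.3% of the 113 tags of the pair (exact Clopper-Pearson 95% interval 49.7 to 68.4). An even split lies inside that interval, so a difference in height between the peaks was not detectable at this depth.

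As point values, the peaks differed less once the control was taken into account. The fold enrichment against local control, as it stands in the authors' deposited table, was 34.5 at the distal and 26.9 at the proximal peak. In the authors' deposited table the −log10 q values were 91.8 and 60.3. The local control level computed back from the fold was 0.972 tags at the distal and 0.746 tags at the proximal peak. These are 2.30 and 1.77 times the genome average of 0.422 tags, and correspond to 24.0 and 18.4 kept control tags per kb, against a genome average of 10.4. The caller adds 1 to both the pileup and the control level before dividing, which lowers the fold where the control level is near or under 1 tag. Without that addition the ratio of pileup to control was 68.9 at the distal peak and 61.7 at the proximal peak, a ratio of 1.12 between them. No interval was computed for that ratio, which carries the counting error of the control as well. Per the file headers, the caller's regional control uses windows of 1000 and 10000 bp. Whether the 2 levels rest on the same window was not checked.

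In shape the 2 peaks were alike. The distal peak was 388 bp wide and the proximal peak 417 bp, so that the peak with fewer tags was the wider by 29 bp. The widths were 2.54 and 2.73 times the fragment length of 153 bp that the caller estimated. Both summits lay close to the middle of their peak, 17.5 bp from it at the distal and 2 bp from it at the proximal peak. With at most 1 tag kept per position and strand, and each extended to 153 bp, a pileup cannot pass 306 tags in the SFN list. The distal peak stood at 21.9% of that cap and the proximal peak at 15.0%, and the tallest peak of the list at 287 tags.

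Within the SFN list, the HMOX1 peaks ranked high by fold and far lower by height alone. Ranked by the values of the authors' deposited table, the distal peak was number 10 of 1925 by fold, 15 by −log10 p and 289 by pileup, and the proximal peak was number 17, 31 and 560. Of the 288 peaks taller than the distal one, 281 had a local control level of 3 or more times the genome average, and of the 559 taller than the proximal one, 548 did. Among the 725 SFN peaks that had a control level under 3, a limit known from earlier results of these data, the distal peak was number 9 by fold and 8 by pileup, and the proximal peak number 12 by both. The median height of those 725 peaks was 9 tags and their median width 178 bp.

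**Figure D2:**
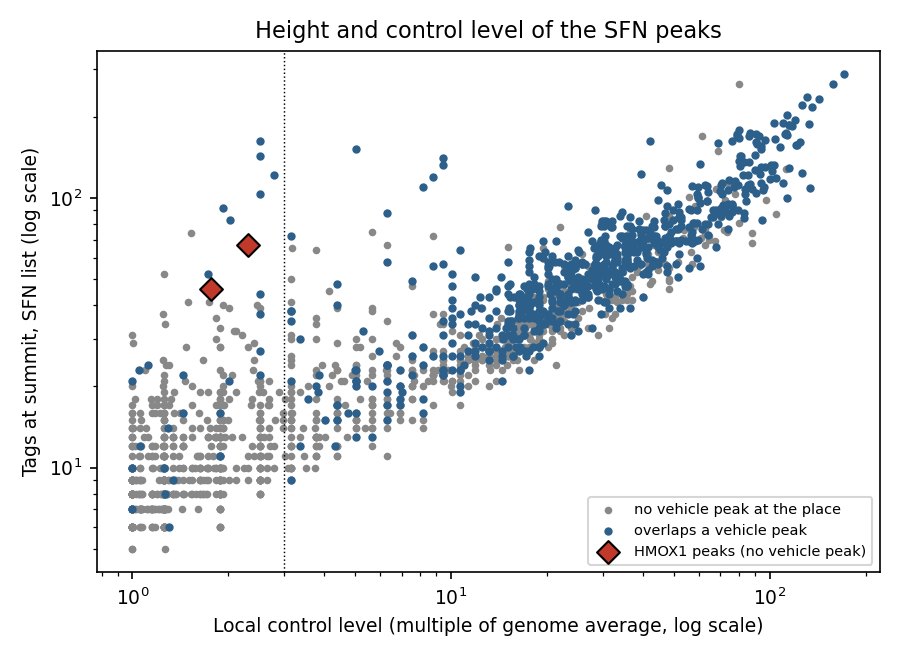
Tags at the summit (vertical axis, log scale) against the local control level as a multiple of the genome average (horizontal axis, log scale) for the 1925 SFN peaks; colour shows whether a vehicle peak overlaps, and the dotted line marks a level of 3. The HMOX1 peaks, at levels of 2.30 and 1.77, stand among the taller peaks to the left of the line, while most peaks of like height lie at higher control levels.

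By fold, the 3 peaks just above the distal HMOX1 peak were chr14:106208117-106208669 (fold 45.6), chrX:153770066-153770614 (45.3) and chr8:62634443-62634759 (34.6). The 3 just below it were chr12:104680146-104680898 (33.8), chr12:95263-95838 (31.4) and chr4:8305274-8305663 (30.6). The peak chr12:104680146-104680898 had the same height as the distal HMOX1 peak, 67 tags, at a like control level of 2.40, but was 753 bp wide. Just above the proximal peak were chr5:9903-11880 (28.6), chr17:48739112-48739479 (28.2) and chr12:133841428-133841958 (fold 26.9 as well). Just below it were chr12:104613145-104613462 (25.7), chrX:155259904-155260505 (25.7) and chr4:6734331-6734698 (25.1). Neighbours in this order of fold differed widely in height: around the proximal peak they had from 41 to 141 tags. The peak chr5:9903-11880 reached nearly the same fold with 141 tags at a control level of 9.41.

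On chromosome 22, the HMOX1 peaks stood apart from the rest of the SFN list in place and in fold. The list held 18 peaks there, and the distal and proximal HMOX1 peaks were first and second by fold. The other 16 had folds from 2.64 to 10.6 with a median of 5.08. The 9 others with a control level under 3 had from 6 to 16 tags, with a median of 11, so neither HMOX1 height overlapped their range. Peaks with as many tags did occur on the chromosome, up to 73 tags, but at control levels of 3 or more. The nearest SFN peak before the window, chr22:29427465-29427687, had 10 tags and lay 6.35 Mb from the HMOX1 start, and the nearest beyond it, chr22:43076633-43076785, had 7 tags and lay 7.30 Mb away.

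**Figure D3:**
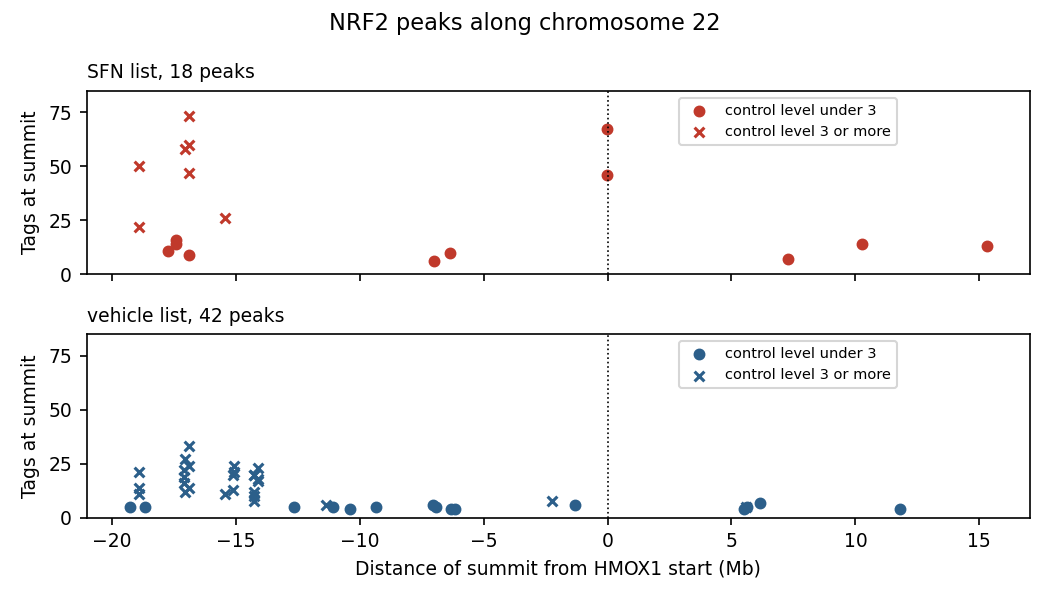
Tags at the summit (vertical axis) of every chromosome 22 peak against the distance of its summit from the HMOX1 start in Mb (horizontal axis), for the 18 SFN peaks above and the 42 vehicle peaks below; circles have a local control level under 3 and crosses a level of 3 or more. The HMOX1 pair, with 67 and 46 tags, is the tallest of the circles, and the tall crosses lie more than 10 Mb to the left.

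The paired arrangement was next compared with the rest of the list. Of all SFN peaks, 53.3% had another SFN summit within 10 kb, but among those with a control level under 3 it was 6.76% (49 of 725). Among the 12 peaks with a control level under 3 and at least 46 tags, the 2 HMOX1 peaks were the ones with such a neighbour (16.7%). The limit of 46 tags is the height of the proximal HMOX1 peak and was set after the values were seen. When both peaks had to have a fold of 10 or more and no vehicle peak at their place, 119 SFN peaks qualified and 3 pairs within 10 kb were found. The HMOX1 pair was the one with the most tags, 113 in sum. These pairing limits were chosen with earlier results of these data known, so that HMOX1 passed them is no separate result.

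The other 2 pairs met the same limits with lower and narrower peaks. The pair on chromosome 10, chr10:81077460-81077743 and chr10:81080954-81081219, had 25 and 19 tags with summits 3464 bp apart and folds of 15.2 and 11.8. The pair on chromosome 6, chr6:34625188-34625491 and chr6:34632127-34632356, had 18 tags at each summit, 6900 bp apart, and folds of 12.8 and 12.6. Widths were 284 and 266 bp on chromosome 10 and 304 and 230 bp on chromosome 6, against 388 and 417 bp at HMOX1. Control levels were 1.67 and 1.63 on chromosome 10 and 1.14 and 1.19 on chromosome 6, against 2.30 and 1.77 at HMOX1. The taller peak held 56.8% of the tags of the chromosome 10 pair (exact 95% interval 41.0 to 71.7) and the tags of the chromosome 6 pair were evenly split (32.9 to 67.1). These shares and the 59.3% at HMOX1 lie within one another's intervals. The other pairs held 44 and 36 tags, so their intervals are wide, and the share of a taller peak cannot be under 50%. The intervals therefore cannot show whether the pairs are alike.

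Neither HMOX1 peak overlapped a peak of the vehicle list, against 37.9% of all SFN peaks, 3.72% of those with a control level under 3, and 23.7% of those with a fold of 10 or more. The vehicle list held 42 peaks on chromosome 22. The nearest to HMOX1 were chr22:34461844-34462107, with 6 tags and 1.32 Mb from the gene start, and chr22:41295178-41295331, with 4 tags and 5.52 Mb from it. The vehicle list also had no summit within 100 kb of the gene start on either side.

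The lists differed in usable depth, which bears on this absence. Per the file headers, 7448599 of 23090154 SFN tags (32.3%) and 1459665 of 11377334 vehicle tags (12.8%) were left after the limit of 1 per position, so the SFN list had 5.10 times as many kept tags. Scaled by kept tags, the distal HMOX1 peak would have 13.1 tags in the vehicle list (95% interval 10.2 to 16.7, counting error alone) and the proximal peak 9.01 (6.60 to 12.0). These heights assume the same share of bound DNA in both libraries, which was not tested. The vehicle list held 371 peaks with a control level from 1.5 to 2.5, which spans both HMOX1 peaks, and they had from 3 to 19 tags with a median of 5.

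Under the untested assumption of an equal share of bound DNA, the scaled heights would rank high among vehicle peaks with a control level under 3. At the control levels of the HMOX1 peaks, a pileup of 4 tags at the distal and 3 tags at the proximal place reaches the weakest p of any vehicle peak. A call also needs width, since the narrowest vehicle peak was 154 bp, so these counts are not a bound on the tags that lie there uncalled. Of the 1206 vehicle peaks with a control level under 3, 4 were as tall as the scaled distal peak or taller, and 10 as tall as the scaled proximal peak or taller. The caller's fold depends on depth as well. At the scaled heights it would be 11.9 for the distal and 8.73 for the proximal peak, in place of the 34.5 and 26.9 of the SFN list, with no difference in occupancy.

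Tall SFN peaks elsewhere often did have a vehicle peak at their place. Of the 12 low-control SFN peaks with at least 46 tags, 7 (58.3%) overlapped a vehicle peak, and these were 7 of the 10 that lay outside HMOX1. Their SFN heights ran from 52 to 162 tags and the vehicle heights from 4 to 12, with a median of 7. The median of all vehicle peaks with a control level under 3 was 5 tags. The ratio of SFN to vehicle tags ran from 7.43 to 20.8 in these 7, with a median of 16.2, but they were chosen for their height in the SFN list, which favours a high ratio. Over all 27 SFN peaks that overlapped a vehicle peak at a control level below 3, the ratio ran from 0.667 to 20.8 with a median of 3.38, and it was under the 5.10 of the kept tags in 18 of them. Only places called in both lists enter these ratios, so they give no value for HMOX1. The lowest vehicle height among the 27 was 4 tags, so an SFN peak with few tags could only give a low ratio. All 18 ratios under 5.10 came from the 20 peaks with fewer than 46 SFN tags. Of the 12 tall peaks, the 5 without a vehicle peak were the 2 HMOX1 peaks, chr14:106208117-106208669, chr12:104680146-104680898 and chr8:62634443-62634759, with from 46 to 74 tags. The 6 tallest of the 12, from 83 tags up, all overlapped a vehicle peak. Of the other 6, which include both HMOX1 peaks, 1 overlapped, the peak chr4:8305274-8305663 with 52 tags in the SFN and 7 in the vehicle list. The proximal HMOX1 peak is the lowest of the 12 because its height set the limit. The split at 83 tags was made after the values were seen.

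**Figure D4:**
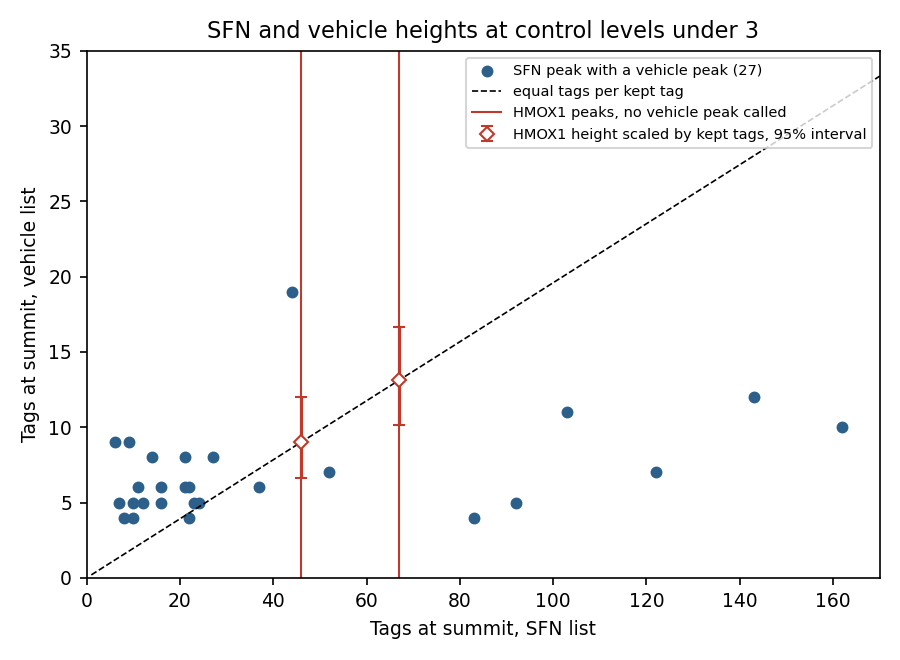
Tags at the summit in the vehicle list (vertical axis) against tags in the SFN list (horizontal axis) for the 27 SFN peaks that overlap a vehicle peak at a local control level below 3; the dashed line is equal height per kept tag. Red lines mark the 46 and 67 tags of the HMOX1 peaks, for which no vehicle peak was called. Open diamonds with bars give their height scaled by kept tags and its 95% interval. Of the 27 blue points, 18 lie above the dashed line and 9 below it, among them the 7 from 52 tags up. Only called vehicle peaks are shown, so points with few SFN tags can only lie above the line.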

How the data were processed

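The 5 ChIP-seq samples are represented by 2 deposited peak lists, 1 per treatment. Per the file headers, each was called with MACS 2.1.0.20140616 from 1 treatment alignment against 1 control of 28125771 kept tags whose name holds the words input and IgG, with tags of 36 bp, at most 1 tag per position and a q cutoff of 0.05. The submitters' processing notes name CASAVA 1.4, BWA and the hg19 build. No header or label says whether samples were pooled before calling. Amplified copies are removed by the limit per position, which also caps true heights.

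The authors deposited a signal for each peak (the tag pileup), a fold over the local control (a ratio) and −log10 p and −log10 q values. The local control level was computed here as the pileup plus 1, divided by the fold, minus 1. A Poisson tail with this level gave the deposited −log10 p to within 0.001 for all 1925 SFN and 2199 vehicle peaks. Overlap meant at least 1 bp. The functions were tested on simulated data, with Python 3.11.15, pandas 2.3.3 and SciPy 1.17.1.

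The gene, its window, the pairing limits (10 kb, fold of 10), the neighbours in rank and the control limit of 3 were chosen with earlier results of these data known. Peaks named were all in the window, the nearest of each list on either side, 3 above and 3 below each in rank by fold, and like pairs. The limit of 46 tags and the range of control levels from 1.5 to 2.5 were chosen after the values were seen, as was the list of peaks named by that height. The hg19 gene start came with the rule for the window and was not read from an annotation. A genome and annotation of hg19 were not used here, so the planned counts of response elements in the peaks and of peaks at other heme, iron and NRF2 partner genes were not run, and no peak sequence is shown. The promoter of HMOX1 is not shown. The sample precipitated with IgG is not described here.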

Additional observations from a re-analysis of the deposited data

How the results depend on the processing

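The 2 SFN peaks, the 0 vehicle peaks and the 0 overlaps at HMOX1 stayed the same in each of the 3 alternatives tried for each count: a window of 100 kb on either side, a q of 1e-05 or less or any base in the window for the peaks, and 50% of the SFN peak, a distance of 500 bp or a q of 1e-05 or less in both lists for the overlaps. Most of these alternatives could hardly have changed the counts. A stricter q or a larger overlap cannot raise a count of 0. With −log10 q values of 91.8 and 60.3, the 2 SFN peaks could not be lost at a q of 1e-05. Outside the window, the nearest peak of either list lay 1.32 Mb from the gene start. The wider window and the 500 bp distance therefore had none to add. Distances by the middle of the peak were 8981.5 and 3974 bp. Ranks by fold, 10 for the distal and 17 for the proximal peak, moved to 289 and 560 by pileup, and the proximal rank to 31 by −log10 p. Without the 1 that the caller adds, an alternative chosen after seeing the data, they were 13 and 18. Scaling by all tags, a ratio of 2.03 in place of 5.10, raised the heights at vehicle depth from 13.1 and 9.01 to 33.0 and 22.7 tags. All tags include the copies removed before calling. The alternative windows for response elements were not tried. No paired analysis was possible because no value in either list can be tied to a single sample, and for the same reason no replicate could be left out. The 1459665 kept vehicle tags limit what the absence of a vehicle call can show.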
